A study of Mus musculus with 30 samples.

Results

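The unfolded protein and endoplasmic reticulum (ER) stress response was followed through 31 genes in mouse lung organoids exposed to inflammatory and fibrotic factors. The genes were taken by symbol from the 55487 genes counted in each library, and all 31 had reads in both cell fractions. Freshly isolated Epcam+ lung epithelial cells of 4 adult wild-type C57BL/6J mice of either sex were grown in Matrigel with an equal number of CCL206 cells, a mouse lung fibroblast line made unable to divide with mitomycin C. The cultures received vehicle, EC (a COPD exacerbation cocktail of TNFα, IL-6, IL-1β and, as the labels have it, IL-8, in place of which the methods name KC, a mouse chemokine, for mouse cells), IPFc (a pulmonary fibrosis cocktail of TGF-β, TSLP, TNFα and CCL2 with the interleukins IL-33, IL-13, IL-8, IL-4 and IL-1β) or TGF-β at 2 ng/ml for 72 h, and were then dispersed with dispase and trypsin and separated again with Epcam beads. RNA of the Epcam+ cells (epithelial libraries) and of the CCL206 fraction (fibroblast libraries) was sequenced in bulk. There were 4 epithelial libraries each of vehicle, EC and IPFc and 3 of TGF-β (mice 2, 3 and 4), and 4 fibroblast libraries each of EC, IPFc and TGF-β and 3 of vehicle (mice 1, 3 and 4). All fibroblasts were of 1 line, so the mouse number of a fibroblast library names the culture and not a fibroblast donor.

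Proteins of the secretory pathway enter the ER through the Sec61 channel and are folded there by chaperones such as BiP (Hspa5) and by disulfide isomerases, and molecules that fail to fold are sent back to the cytosol for degradation. When unfolded proteins accumulate, 3 kinds of sensor respond in the ER membrane: IRE1 (Ern1, and Ern2 in mucus-producing epithelium), which splices Xbp1 mRNA, PERK (Eif2ak3), which slows translation and favours Atf4, and ATF6, whose cut fragment is a transcription factor. XBP1 and ATF6 raise chaperone and degradation genes, and ATF4 raises CHOP (Ddit3), Trib3, Chac1 and Asns. The counts are per gene, so spliced and unspliced Xbp1 were not separated, and neither cleavage of ATF6 nor phosphorylation of PERK is seen in them. In bulk RNA, more cells of a type and more RNA of a gene per cell cannot be told apart.

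Several promoters of members carried elements known to bind these factors. Windows from 250 bases before to 50 after the RefSeq start (build GRCm38.p6) were held for 27 members, and not for Atf6, Ern2, Hyou1 and Manf. The ER stress element ERSE, bound by ATF6 and XBP1 with NF-Y and searched on both strands as CCAAT, any 9 bases and CCACG, was in 8 of the 27 members (29.6%) and in 37 of 27025 genes (0.137%). ERSE-II, searched as ATTGG, any base and CCACG, was in 2 members (7.41%) against 0.0444% of genes, and the amino acid response element CARE of ATF4, searched as TGATGNAA, was in 4 (14.8%) against 4.51%. The core of the XBP1 element UPRE, TGACGTGG, was in none of the 27 and in 0.714% of genes. The stretches below are shown because they belong to chaperones and targets whose counts are described further on. They run in the direction of the gene, with the element in capitals and 20 bases on either side, or up to the last base before the start.

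Hspa5 (ERSE, chr2:34772005-34772063, + strand): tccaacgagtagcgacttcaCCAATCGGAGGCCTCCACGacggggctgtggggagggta
Hsp90b1 (upstream ERSE, chr10:86705618-86705676, - strand): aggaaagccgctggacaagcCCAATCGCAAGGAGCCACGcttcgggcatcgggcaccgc
Hsp90b1 (nearer ERSE, reversed, chr10:86705513-86705571, - strand): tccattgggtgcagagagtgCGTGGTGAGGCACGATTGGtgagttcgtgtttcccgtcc
Creld2 (ERSE, reversed, chr15:88819500-88819558, + strand): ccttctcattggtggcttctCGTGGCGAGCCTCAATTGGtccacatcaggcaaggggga
Pdia6 (ERSE, chr12:17266471-17266529, + strand): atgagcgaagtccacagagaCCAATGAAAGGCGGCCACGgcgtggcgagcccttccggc
Syvn1 (ERSE, chr19:6046512-6046570, + strand): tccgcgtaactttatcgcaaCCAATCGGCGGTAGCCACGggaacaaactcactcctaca
Herpud1 (ERSE-II, chr8:94386357-94386407, + strand): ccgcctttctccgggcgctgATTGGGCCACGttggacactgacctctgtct
Chac1 (CARE, reversed, chr2:119351029-119351076, + strand): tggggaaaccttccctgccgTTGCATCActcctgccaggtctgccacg
Asns (CARE, chr6:7693210-7693252, - strand): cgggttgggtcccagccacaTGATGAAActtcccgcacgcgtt

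Calr, Canx and Dnajc3 also held an ERSE, Dnajb11 an ERSE-II just after the start, and Herpud1 and Trib3 a CARE. Matches of letters describe these windows and are no evidence of binding.

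**Figure D1:**
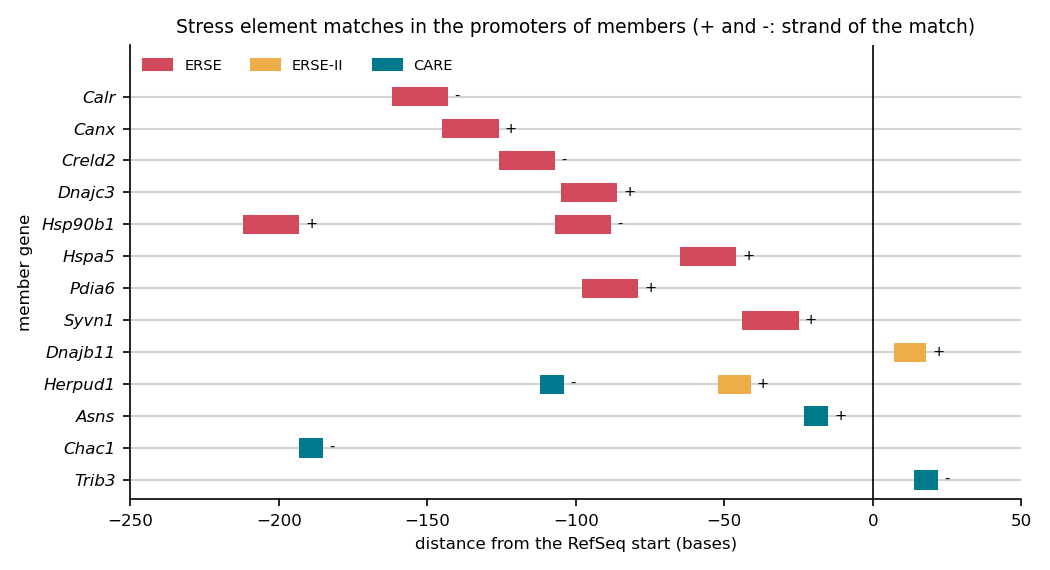
Position of each ERSE, ERSE-II and CARE match in the promoters of the 13 members that held one, with the distance from the RefSeq start in bases on the horizontal axis and 1 member per line. The 9 ERSE matches all lie before the start, Hsp90b1 holds a pair of them, and the matches of Dnajb11 and Trib3 lie after it.

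The libraries held 5113828 to 20317181 counted reads. The fibroblast EC library of mouse 1 was the shallowest and stood apart: its short genes (by exonic length) exceeded its long genes by 0.92 on the log2 scale relative to the other libraries of its fraction. The epithelial EC library of mouse 4 came next at 0.42, and the other 28 libraries lay between -0.37 and 0.22. The separation was incomplete. From 16 epithelial and 19 fibroblast marker genes, with at least 50 CPM (reads scaled to a common library size) in the partner library of the same treatment, fibroblast RNA in epithelial libraries was estimated at 5.95% ± 2.46 (SD, n = 4) of its level in the partner with vehicle, 11.6% ± 5.02 with EC (n = 4), 11.4% ± 5.6 with IPFc (n = 4) and 29.0% ± 2.7 with TGF-β (n = 3). Epithelial RNA in fibroblast libraries was estimated at 21.6% ± 7.5 (n = 3), 46.9% ± 10.8 (n = 4), 19.4% ± 9.58 (n = 4) and 2.28% ± 1.37 (n = 4). The shares with EC and TGF-β in fibroblast libraries and with TGF-β in epithelial libraries did not overlap with vehicle, and each of these comparisons gave an exact two-sided permutation p of 0.0571 (adjusted p = 0.0857 over 6 tests), the smallest that 4 against 3 allows. In epithelial EC against vehicle (4 against 4) the exact permutation p was also 0.0571 (adjusted p = 0.0857). For IPFc the exact permutation p was 0.229 in epithelial and 0.686 in fibroblast libraries. The summed level of the 19 fibroblast markers in epithelial libraries was 1252 to 2116 CPM with vehicle, 1044 to 2318 CPM with EC, 1544 to 3792 CPM with IPFc and 13600 to 15483 CPM with TGF-β, and 18644 to 23035 CPM in fibroblast vehicle libraries. Thy1 was at 0 in epithelial TGF-β libraries and in fibroblast vehicle libraries alike. In epithelial IPFc against vehicle 10 of the 18 fibroblast markers tested were called higher and 0 lower. The 16 epithelial markers summed to 18979 to 24548 CPM in epithelial vehicle libraries, 14001 to 19649 CPM in epithelial EC libraries, 7770 to 10092 CPM in epithelial TGF-β libraries and 5312 to 8636 CPM in fibroblast vehicle libraries. Epithelial cells under TGF-β can express mesenchymal genes themselves, so the estimate for that group cannot be told apart from such expression. Each comparison below was therefore also run after subtracting the estimated share.

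**Figure D2:**
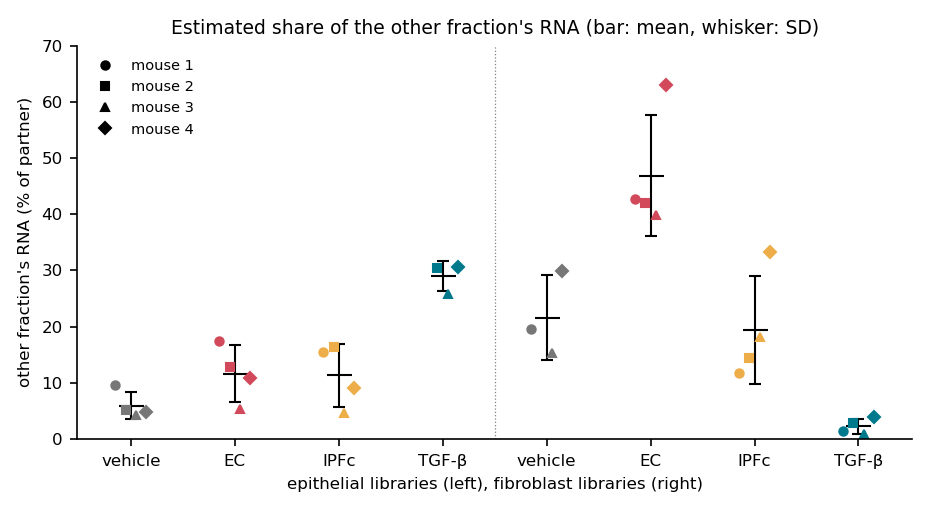
Estimated RNA of the other fraction in each of the 30 libraries, in percent of its level in the partner library, with 1 point per library shaped by mouse and the mean and SD per group. Epithelial TGF-β libraries sit near 30% and fibroblast EC libraries between 39.9% and 62.9%, while fibroblast TGF-β libraries stay under 4%.

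The members spanned a wide range of levels, with the lectin chaperone Calr at the top. Levels are CPM after TMM scaling, a normalization for library size and composition. Per kilobase of exonic length, Calr held 422 ± 11.3 CPM per kb (SD, n = 4) in epithelial vehicle libraries, followed by Hspa5 at 332 ± 16.3, Hsp90b1 (the ER HSP90) at 209 ± 25.9 and the disulfide isomerase Pdia3 at 209 ± 23.8. Hsp90b1 and Pdia3 did not differ beyond their spread. The lowest were Trib3 at 1.76 ± 0.39, Ddit3 at 1.23 ± 0.0947 and Chac1, a glutathione-degrading enzyme, at 1.02 ± 0.183 CPM per kb. In fibroblast vehicle libraries Calr also led, at 454 ± 54.6 CPM per kb (n = 3), and Ern2 was last at 0.158 ± 0.209.

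Levels with vehicle differed between the fractions for many members. Between epithelial and fibroblast vehicle libraries 18 of the 31 members passed an adjusted p of 0.05 in edgeR (58.1%, against 56.0% of all genes tested, 27.8% higher in epithelial and 28.2% higher in fibroblast libraries), so the share was near that of genes at large. Higher in epithelial libraries were 6, namely Ern2, Sdf2l1, Dnajb11, Sec61b, Atf6 and Hyou1, and 12 were higher in fibroblasts. Ddit3, which encodes the stress-induced transcription factor CHOP, differed most on the fibroblast side, with 6.49, 7.61, 6.48 and 6.85 CPM in the epithelial libraries of mice 1 to 4 and 44.6, 35.1 and 39.2 CPM in the fibroblast libraries of mice 1, 3 and 4. It was 5.9-fold lower in epithelial libraries (log2 difference -2.56 ± 0.19 SE, adjusted p = 1.46e-11). Ddit3 counts carry a limit: the symbol is listed for a pair of Ensembl genes, 1 of which lies within the other on the same strand and had 0 reads in every library, so reads in the overlap may not have been counted. The ATF4 targets Trib3 and Chac1 were also higher in fibroblasts, by 2.4-fold and 2.72-fold (log2 -1.26 ± 0.19 and -1.44 ± 0.29), whereas Atf4 itself did not pass (log2 0.15 ± 0.09, adjusted p = 0.184).

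Among the sensors, Ern1, the IRE1 found in most cells, was 2.54-fold lower in epithelial libraries (58.3 ± 5.15 CPM, n = 4) than in fibroblast libraries (145 ± 21.5 CPM, n = 3; log2 -1.34 ± 0.19, adjusted p = 1.33e-06). Ern2 ran the other way, with 8.96, 5.74, 6.68 and 5.33 CPM in epithelial and 0.151, 0.073 and 1.2 CPM in fibroblast libraries (log2 3.75 ± 0.66, adjusted p = 3.47e-05). The highest of these fibroblast values, in mouse 4, stood in the vehicle library with the highest epithelial share (29.9%). Eif2ak3 was higher in fibroblasts and Atf6 in epithelial libraries (log2 -0.48 ± 0.16 and 0.43 ± 0.16). After subtraction in both fractions 12 of the 18 members passed, and Eif2ak3, Atf6, Hyou1, Sec61b, Dnajb9 and Pdia3 did not, with Eif2ak3 at -0.63 ± 0.27 (adjusted p = 0.0677) and Atf6 at 0.58 ± 0.56 (adjusted p = 0.421). Sdf2l1 and Dnajb11, co-chaperones of BiP, were higher in epithelial libraries by 2.23-fold and 1.8-fold, and the isomerase Pdia4 was lower by 1.85-fold (log2 -0.89 ± 0.09, adjusted p = 3.05e-09). Leaving out mouse 3, 11 of the members passed.

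With EC, part of the folding machinery of the epithelial libraries rose. Of the 31 members 7 were higher than with vehicle and 0 lower (22.6% higher; of the 18024 genes tested 1.96% were higher, 2.44% lower and 4.41% called in either direction), and the median log2 fold change of the members was 0.26, beside 0.003 over all genes. The 7 were the chaperones and co-chaperones Hsp90b1, Manf and Creld2, the isomerases Pdia4 and Pdia6, the translocon-associated Ssr1 and the transcription factor Xbp1. All 11 chaperones and all 3 isomerases had a log2 fold change above 0, and 18 members were higher at an unadjusted p under 0.05. Other lists moved in the same libraries: of 15 immediate early genes, which respond to cell dissociation, 4 were lower and 0 higher, and of the 16 epithelial markers 3 were lower and 1 higher. Their part in these results was not tested.

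Xbp1 counted 111, 112, 108 and 113 CPM with vehicle in mice 1 to 4 and 157, 170, 122 and 143 CPM with EC. The groups did not overlap, and each mouse rose, by a mean log2 fold change of 0.41 ± 0.10 (adjusted p = 0.0176). Pdia4 went from 267, 255, 236 and 246 CPM to 314, 314, 284 and 320 CPM (log2 0.30 ± 0.07, adjusted p = 0.0225), again without overlap. Creld2, an ER-resident protein with an ERSE shown above, went from 95.6, 93.8, 88.9 and 91.2 CPM to 119, 116, 102 and 134 CPM (log2 0.35 ± 0.09, adjusted p = 0.0216). Here too each EC library lay above every vehicle library. Hsp90b1 counted 1273, 1251, 1104 and 1489 CPM with vehicle and 1531, 1455, 1400 and 2174 CPM with EC, so that the groups overlapped while each mouse rose (log2 0.35 ± 0.09, adjusted p = 0.0352). Manf, a secreted ER factor that protects stressed cells, had the largest of the 7 changes, at 0.43 ± 0.12 (adjusted p = 0.0337), and Pdia6 and Ssr1 had the smallest, at 0.29 ± 0.08 and 0.28 ± 0.08. The epithelial EC library of mouse 4, with its excess of short genes, was the highest of its group for 6 of these 7 genes and for Hspa5.

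Hspa5 itself, the central chaperone and regulator of the sensors, did not pass. It counted 1771, 1829, 1793 and 1972 CPM with vehicle and 2082, 2043, 2100 and 2745 CPM with EC (log2 0.28 ± 0.08, adjusted p = 0.0679). The EC libraries were all above the vehicle libraries, that of mouse 4 by the most. None of the 4 sensors passed. Their log2 fold changes were -0.02 ± 0.13 for Ern1, -0.30 ± 0.23 for Ern2, -0.07 ± 0.10 for Eif2ak3 and -0.09 ± 0.09 for Atf6. On the PERK side, Atf4 was at 215, 247, 248 and 275 CPM with vehicle and 245, 261, 290 and 352 CPM with EC (log2 0.22 ± 0.08, adjusted p = 0.156), and Ddit3 at 0.09 ± 0.18. Of the 4 integrated stress response targets 0 passed, Trib3 being nearest with 0.52 ± 0.19 (adjusted p = 0.17).

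These calls sat close to the threshold. The count of members called was 0 without the mouse as a block, 0 without mouse 1, 0 without mouse 2 and 2 without mouse 3, whereas 6 members passed without the epithelial EC library of mouse 4 and 13 passed in DESeq2. After subtraction of the fibroblast share 0 of the 7 passed, with adjusted p-values from 0.0778 (Ssr1) to 0.307 (Hsp90b1), while the median log2 fold change of the members was 0.24 and that of Xbp1 0.46.

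**Figure D3:**
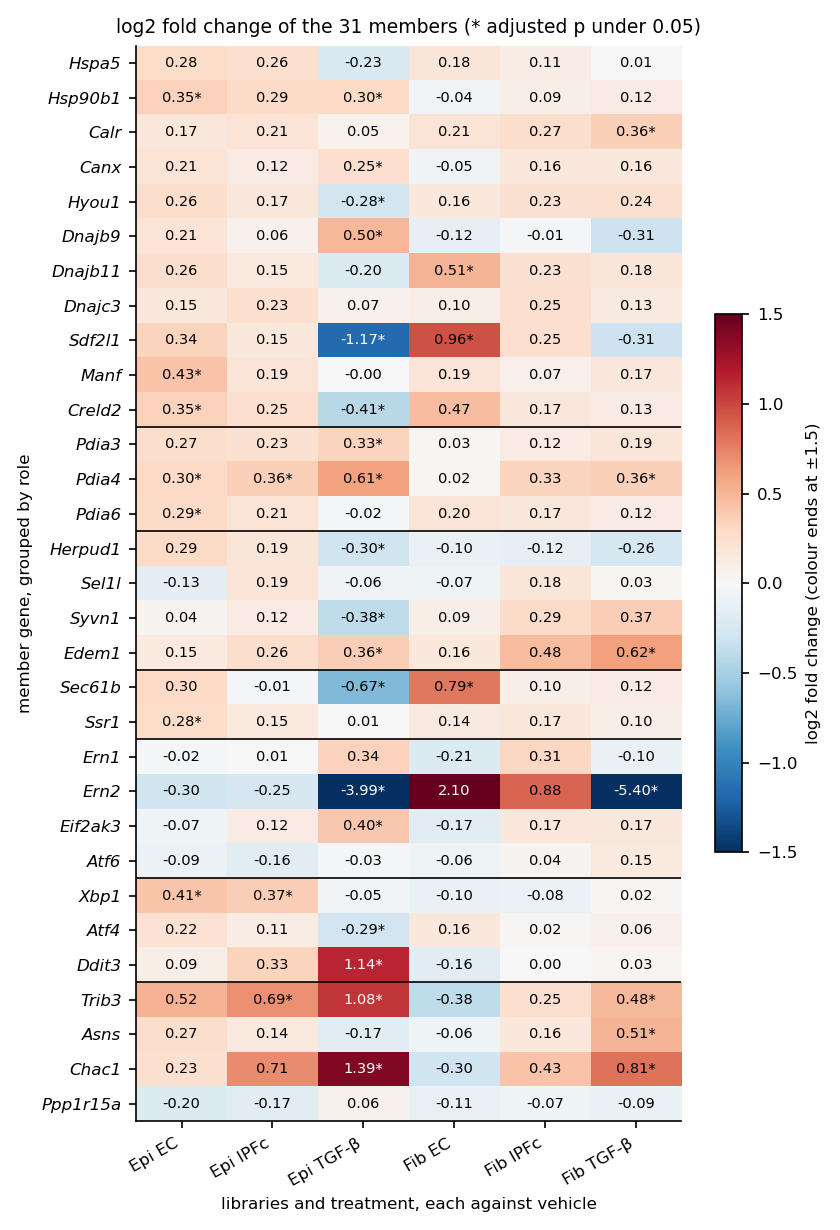
log2 fold change of each member (lines, grouped by role) against vehicle in the 6 comparisons (columns), with the value printed in each cell, red for higher and blue for lower, and an asterisk at an adjusted p under 0.05. The epithelial EC and IPFc columns are pale red over chaperones and isomerases, and the epithelial TGF-β column mixes both colours, from 1.39 for Chac1 to -3.99 for Ern2.

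With IPFc, Pdia4, Xbp1 and Trib3 were higher in epithelial libraries. These 3 members were higher and 0 lower (9.68% higher; of all genes tested 2.57% were higher, 1.53% lower and 4.10% called in either direction), with a median log2 fold change of 0.19 beside 0.006 over all genes. Pdia4 counted 364, 307, 312 and 317 CPM in mice 1 to 4 (log2 0.36 ± 0.07 against vehicle, adjusted p = 0.00652) and Xbp1 155, 150, 151 and 123 CPM (0.37 ± 0.10, adjusted p = 0.0405). Both groups lay above the vehicle values given above. The third was Trib3, a pseudokinase induced by ATF4 and CHOP, which went from 4.99, 5.66, 7.92 and 5.33 CPM to 10, 13.1, 8.5 and 7.49 CPM (0.69 ± 0.19, adjusted p = 0.0474), with mouse 4 of IPFc below mouse 3 of vehicle. Chac1 had a change of like size (0.71 ± 0.23) and did not pass (adjusted p = 0.109), nor did Hspa5 (0.26 ± 0.08, adjusted p = 0.107), the sensors (-0.25 for Ern2 to 0.12 for Eif2ak3), Atf4 (0.11 ± 0.08) or Ddit3 (0.33 ± 0.17). The count was 1 without the mouse as a block, 0 after subtraction of the fibroblast share, 0 without mouse 1, 1 without mouse 2 or 3, 8 without mouse 4 and 9 without the epithelial EC library of mouse 4, which enters the shared estimate of spread. In vehicle libraries, which also enter this comparison, fibroblast levels of Pdia4, Xbp1 and Trib3 were 1.85-, 1.35- and 2.4-fold those of epithelial libraries. After subtraction the log2 fold changes were 0.28 ± 0.08, 0.41 ± 0.14 and 0.70 ± 0.26 (adjusted p = 0.221, 0.327 and 0.428).

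EC and IPFc were compared directly, since both contain TNFα and IL-1β. In epithelial libraries 1 of 31 members differed (3.23%, against 4.17% of all genes, 1.76% higher and 2.40% lower with EC). Sel1l, the adaptor of the HRD1 degradation complex, was lower with EC in each mouse, at 207, 210, 219 and 184 CPM against 238, 246, 275 and 281 CPM (log2 -0.32 ± 0.09, adjusted p = 0.0434). The call was lost without any 1 mouse, without the epithelial EC library of mouse 4, without the block and after subtraction, with 0 members called in each case. After subtraction Sel1l was at -0.34 ± 0.10 (adjusted p = 0.143).

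With TGF-β many members differed from vehicle in the epithelial libraries, in both directions. Of the 31 members 18 passed (58.1%, against 41.1% of the 18024 genes tested), 10 higher and 8 lower (21.0% and 20.1% of all genes), and their median log2 fold change was -0.0003 beside 0.034 over all genes. Higher were the sensor Eif2ak3, the factor Ddit3 and the targets Trib3 and Chac1, the chaperones Hsp90b1, Canx and Dnajb9, the isomerases Pdia3 and Pdia4 and the mannosidase-like degradation factor Edem1. Lower were Ern2, Sdf2l1, Sec61b, Creld2, Hyou1, Herpud1, Syvn1 and Atf4. The ATF4 target Asns did not pass (log2 -0.17 ± 0.12). The fibroblast share of these TGF-β libraries was estimated at 29.0%. In vehicle libraries, which also enter this comparison, fibroblast levels of Ddit3, Chac1, Trib3 and Pdia4 were 5.9-, 2.72-, 2.4- and 1.85-fold those of epithelial libraries, and those of Sdf2l1 were 2.23-fold lower. By direction alone, all 10 members that rose were higher in fibroblast than in epithelial vehicle libraries. Of the 8 that fell, 6 were lower in fibroblast vehicle libraries, Herpud1 and Syvn1 being the exceptions.

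The largest fall was that of Ern2. It counted 8.96, 5.74, 6.68 and 5.33 CPM with vehicle and 0.635, 0.23 and 0.113 CPM (13, 3 and 1 reads) with TGF-β in mice 2, 3 and 4. The groups were far apart, with a 15.9-fold difference (log2 -3.99 ± 0.37, adjusted p = 2.5e-08), and after subtraction the log2 fold change was -3.69. IRE1β, its product, is known from goblet cells. Of the 11 goblet markers 8 fell at an adjusted p under 0.05 and 0 rose, while 3 had a log2 fold change above 0 (1 of them at an unadjusted p under 0.05), and their summed level went from 96.6 to 221 CPM with vehicle to 23.7 to 43 CPM with TGF-β. Their part in the fall of Ern2 was not tested. With IPFc the same markers reached 278 to 831 CPM, and Ern2 was at 8.65, 6.69, 3.97 and 4.15 CPM, within the range of vehicle or below it.

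Sdf2l1 counted 96.7, 90.2, 95.2 and 69.5 CPM with vehicle and 43, 35.1 and 31.2 CPM with TGF-β. No library overlapped, and the fall was 2.25-fold (log2 -1.17 ± 0.12, adjusted p = 7.72e-08) and -1.10 after subtraction (adjusted p = 9.62e-05). Sec61b, a subunit of the translocation channel, went from 56.3, 55.3, 59.7 and 72.6 CPM to 37.8, 39.6 and 37.1 CPM (log2 -0.67 ± 0.12, adjusted p = 0.000187). Creld2 fell to 65.9, 65 and 66.7 CPM (-0.41 ± 0.10, adjusted p = 0.00186), under every vehicle library. Atf4 was at 200, 195 and 211 CPM (-0.29 ± 0.09, adjusted p = 0.0117), also below every vehicle library. Hyou1, a large HSP70 of the ER, and the degradation factors Herpud1 and Syvn1 (the ubiquitin ligase HRD1) fell by 0.28, 0.30 and 0.38 on the log2 scale. After subtraction 7 of the 8 were still lower at an adjusted p under 0.05, Herpud1 being the exception (-0.31, adjusted p = 0.0524), and Syvn1 then stood at -0.77.

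The members that rose were less stable to that subtraction. Ddit3 went from 6.49, 7.61, 6.48 and 6.85 CPM to 17.5, 12.3 and 14.7 CPM (log2 1.14 ± 0.19, adjusted p = 4.27e-05), without overlap. After subtraction its log2 fold change was -0.06 (adjusted p = 0.946), and that of Edem1 turned from 0.36 ± 0.10 to -0.19 (adjusted p = 0.341). Chac1 went from 2.32, 2.67, 2.26 and 3.3 CPM to 8.35, 6.97 and 4.5 CPM (1.39 ± 0.25, adjusted p = 0.000125), and was at 0.80 after subtraction (adjusted p = 0.103). The 2 that stayed past the threshold were Trib3 and Pdia4. Trib3 counted 15.4, 15 and 7.99 CPM in mice 2, 3 and 4 (1.08 ± 0.21, adjusted p = 0.000257) and kept 0.84 (adjusted p = 0.0468), and Pdia4 counted 360, 359 and 368 CPM (0.61 ± 0.08, adjusted p = 4.42e-06) and kept 0.36 (adjusted p = 0.0101). Eif2ak3 rose from 41.4, 38.8, 38.2 and 47.9 CPM to 49.1, 52.2 and 59.9 CPM (0.40 ± 0.11, adjusted p = 0.00616) and was at 0.39 after subtraction (adjusted p = 0.067). The other sensors gave 0.34 ± 0.14 for Ern1 (adjusted p = 0.0608) and -0.03 ± 0.10 for Atf6. Xbp1 was at 105, 119 and 84.1 CPM (-0.05 ± 0.11) and Hspa5 at 1523, 1589 and 1541 CPM (-0.23 ± 0.09, adjusted p = 0.0605), below every vehicle library. Without mouse 3, 10 members passed, 5 in each direction.

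**Figure D4:**
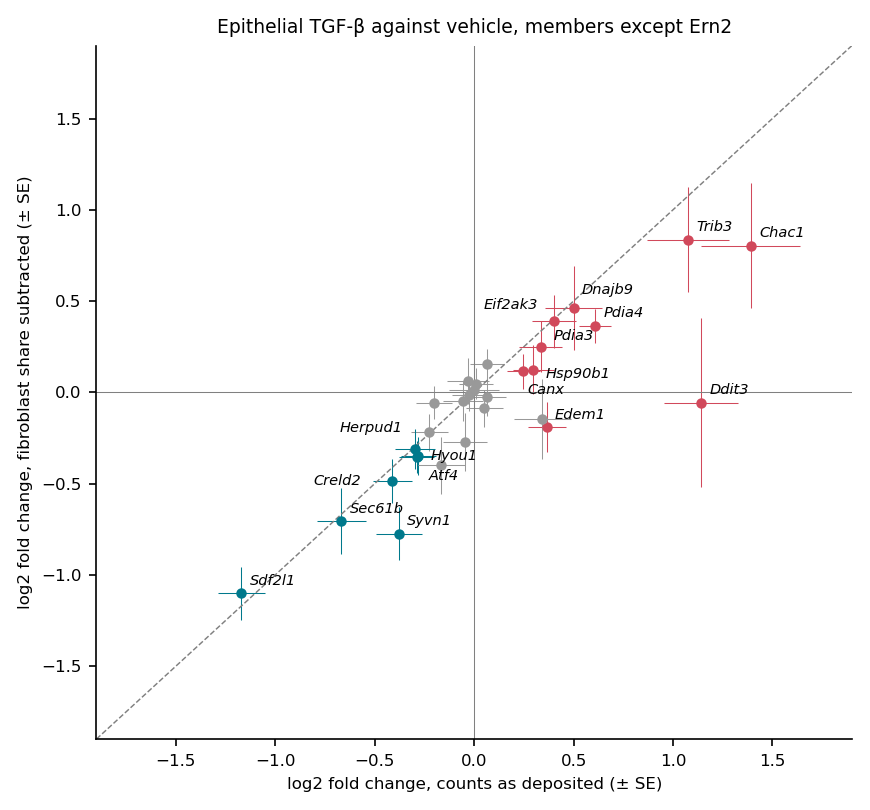
log2 fold change with SE of 30 members in epithelial TGF-β against vehicle libraries, from the counts as deposited (horizontal) and after subtraction of the estimated fibroblast share (vertical). Red points rose and teal points fell at an adjusted p under 0.05 in the deposited counts, grey points did not pass. The teal points lie near or below the dashed line of equality while Ddit3 and Edem1 drop to -0.06 and -0.19, and Ern2 (-3.99 and -3.69) is left out.

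IPFc and TGF-β, of which the first contains the second among its factors, differed for 19 members in epithelial libraries (61.3%, against 37.2% of all genes, 18.6% higher and 18.7% lower with IPFc). With IPFc 13 were higher, led by Ern2 (13.4-fold) and Sdf2l1 (2.5-fold, log2 1.32 ± 0.12), and including Hspa5 (2132, 2071, 2416 and 2271 CPM against 1523, 1589 and 1541 CPM, log2 0.48 ± 0.09, adjusted p = 0.000353), Xbp1 (0.42 ± 0.11) and Atf4 (0.40 ± 0.09). The 6 that were lower with IPFc were Dnajb9, Pdia4, Eif2ak3, Ddit3, Chac1 and Ppp1r15a. After subtraction 12 members were higher and 1 lower with IPFc, and Ddit3 changed sign (0.26, adjusted p = 0.747).

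In fibroblast libraries few members passed with EC. There, 3 members were higher and 0 lower (9.68% higher; of the 18048 genes tested 4.28% were higher, 2.84% lower and 7.11% called in either direction), with a median log2 fold change of 0.03 beside -0.022 over all genes. Sdf2l1 went from 41.7, 32.3 and 46.5 CPM in mice 1, 3 and 4 to 107, 58.2, 58.7 and 71.7 CPM in mice 1 to 4 (log2 0.96 ± 0.19, adjusted p = 0.00561). Sec61b went from 42.8, 37 and 40.8 CPM to 113, 44, 45.5 and 65 CPM (0.79 ± 0.22, adjusted p = 0.0369), and Dnajb11 had a change of 0.51 ± 0.14 (adjusted p = 0.0368). The first pair did not overlap with vehicle, and mouse 1, the library that stood apart, was the highest for all 3. Without that library 4 members passed. In vehicle libraries, which also enter this comparison, epithelial levels of Sdf2l1, Sec61b and Dnajb11 were 2.23-, 1.59- and 1.8-fold those of fibroblast libraries, and the epithelial share of the fibroblast EC libraries was 46.9%. After subtraction 0 members passed, with Sdf2l1 at 0.44 ± 0.53, Sec61b at 0.41 ± 0.67 and Dnajb11 at -0.29 ± 0.60 (adjusted p = 0.928, 0.951 and 0.962). The count was 1 without the block, and 0 without mouse 3 or without mouse 4. The sensors and factors Ern1, Eif2ak3, Atf6, Xbp1, Atf4 and Ddit3 had log2 fold changes from -0.21 to 0.16, none of which passed, and Ern2 was at 0.395, 0.985, 1.7 and 2.38 CPM (2.10 ± 0.75, adjusted p = 0.119).

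IPFc gave 0 calls among the members in fibroblast libraries, where 0.449% of all genes passed in edgeR (0.305% higher and 0.144% lower). At an unadjusted p under 0.05 there were 4, all higher, and DESeq2 called 2. Edem1 was nearest, with 257, 237, 222 and 188 CPM against 167, 159 and 149 CPM with vehicle (log2 0.48 ± 0.11, adjusted p = 0.0858), and 1 member was called without the fibroblast EC library of mouse 1.

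With TGF-β, 3 of the 4 integrated stress response targets among the members, Trib3, Asns and Chac1, were higher in fibroblast libraries, and Ppp1r15a, a phosphatase subunit that restores translation, was not called (log2 -0.09). Of the 31 members 7 passed (22.6%, against 19.2% of all genes), a share near that of genes at large. Higher were 6 (Calr, Pdia4, Edem1, Trib3, Asns and Chac1) and lower 1 (Ern2), where 6.39% of all genes were higher and 12.8% lower. The members' median log2 fold change was 0.13 beside -0.016 over all genes. The epithelial share was 2.28% here and 21.6% in vehicle libraries, which also enter this comparison. With vehicle, Calr, Pdia4, Edem1, Trib3 and Chac1 were higher in fibroblast and Asns in epithelial libraries. After subtraction Trib3 was at 0.24 ± 0.21, Chac1 at 0.58 ± 0.27 and Asns at 0.52 ± 1.03 (adjusted p = 0.777, 0.362 and 0.988). Chac1 counted 7.9, 13, 20.4 and 8.98 CPM in mice 1 to 4 against 5.04, 9.71 and 6.5 CPM with vehicle in mice 1, 3 and 4 (log2 0.81 ± 0.18, adjusted p = 0.00339), higher with TGF-β in each of the 3 cultures that had both libraries (mice 1, 3 and 4) although the groups overlapped. Asns, the asparagine synthetase, went from 78.8, 81.9 and 68.8 CPM to 110, 110, 102 and 97.6 CPM (0.51 ± 0.12, adjusted p = 0.00489). Edem1 went from 167, 159 and 149 CPM to 257, 245, 226 and 219 CPM (0.62 ± 0.11, adjusted p = 0.000514). Neither gene's groups overlapped. Trib3 reached 15.8, 19.9, 25.1 and 16 CPM, from 14.4, 14.6 and 12.2 CPM (0.48 ± 0.16, adjusted p = 0.0484), and Pdia4 604, 571, 581 and 535 CPM, from 490, 488 and 423 CPM (0.36 ± 0.11, adjusted p = 0.0246). The factors upstream did not pass: Atf4 was at 0.06 ± 0.11, Ddit3 at 0.03 ± 0.15 and Xbp1 at 0.02 ± 0.11, and Ddit3 counted 29.5, 40.7, 42.9 and 42.9 CPM with TGF-β, the first below every vehicle value and the others within their range.

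Ern2 had 0 reads in all 4 fibroblast TGF-β libraries and 22 reads in the 3 vehicle libraries, most of them in mouse 4. Setting the group of 0 at 3 reads over its libraries (0.0501 CPM), the level was at least 9.46-fold lower than the vehicle mean of 0.474 CPM. This limit rests on mouse 4, which held 19 of the 22 vehicle reads. Without it 3 reads were left in vehicle (a mean of 0.112 CPM), too few to give a fold. The epithelial share was 2.28% in these TGF-β libraries and 21.6% in vehicle. After subtraction 0 members passed, Edem1 being nearest (log2 0.46, adjusted p = 0.0513), and no Ern2 reads were left in either group, so that its fitted value (0.43) has no meaning as a change. The count of calls was 3 without the block, 4 without mouse 2, 3 without mouse 3 and 2 without mouse 4.

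EC and IPFc differed for 5 members in fibroblast libraries (16.1%, against 10.4% of all genes, 6.28% higher and 4.16% lower with EC). Sdf2l1 and Sec61b were higher with EC (log2 0.71 ± 0.17 and 0.68 ± 0.20), and Trib3, Chac1 and Pdia4 lower (-0.63 ± 0.15, -0.73 ± 0.17 and -0.31 ± 0.10). Trib3 counted 12, 11.6, 11.6 and 9 CPM with EC and 16.8, 20.6, 19.8 and 11.6 CPM with IPFc, lower with EC in all 4 cultures. No member passed after subtraction. Trib3 was then at -0.61 ± 0.19 and Chac1 at -0.53 ± 0.25, while Pdia4, Sdf2l1 and Sec61b were at -0.15 ± 0.10, 0.09 ± 0.48 and 0.19 ± 0.61. There was 1 that passed without the block, 1 without mouse 2 or 3 and 0 without mouse 4. IPFc and TGF-β differed for 3 members (9.68%, against 17.4% of all genes, 12.1% higher and 5.33% lower with IPFc). Sdf2l1 (log2 0.56 ± 0.17) and Ern2 (at least 12.6-fold over the limit of 0 reads) were higher with IPFc and Asns was lower (-0.35 ± 0.11). This count was 0 after subtraction, 1 without the block, 1 without mouse 2, 3 or 4, and 5 without the fibroblast EC library of mouse 1.

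**Figure D5:**
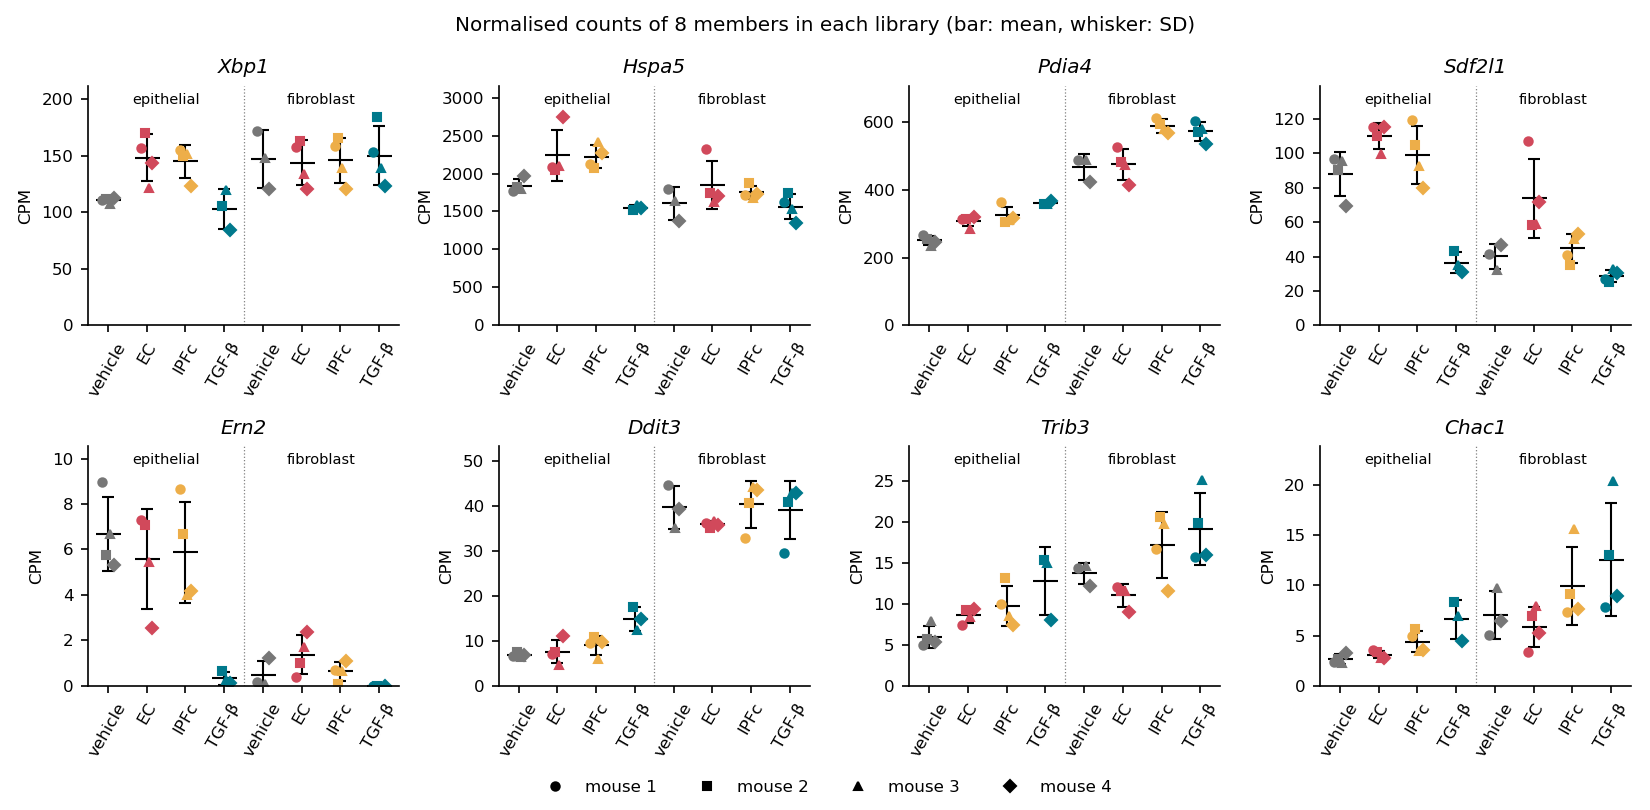
Normalised counts (CPM, linear axis from 0) of 8 members in each of the 30 libraries, with epithelial groups on the left and fibroblast groups on the right of each panel, 1 point per library shaped by mouse, and the mean and SD per group. Xbp1 and Pdia4 rise with EC and IPFc in epithelial libraries, Sdf2l1 and Ern2 fall there with TGF-β, and Ddit3 in epithelial TGF-β libraries (12.3 to 17.5 CPM) stays below every fibroblast library.

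Whether the fractions answered differently was tested as an interaction. For EC, 3 members differed (9.68%, against 4.59% of all genes, 1.26% higher and 3.33% lower in the epithelial response). The response of Xbp1 was higher in epithelial libraries by a log2 difference of 0.51 ± 0.15 (adjusted p = 0.0437), with 0.41 in epithelial and -0.10 in fibroblast libraries, and that of Trib3 by 0.90 ± 0.26 (adjusted p = 0.0477), with 0.52 and -0.38. Ern2 differed by -2.25 ± 0.63 (adjusted p = 0.0404). After subtraction 2 members passed, Ern2 (-6.02 ± 1.18, adjusted p = 0.0376, with no reads left in fibroblast vehicle libraries) and Herpud1 (0.96 ± 0.17, adjusted p = 0.00611), while Xbp1 was at 0.92 ± 0.24 (adjusted p = 0.0653) and Trib3 at 1.20 ± 0.34 (adjusted p = 0.106). The count was 0 without the block, 0 without the epithelial EC library of mouse 4, 0 without mouse 2, 3 or 4, 1 without mouse 1 and 5 without the fibroblast EC library of mouse 1. For IPFc 0 members differed in edgeR (2 at an unadjusted p under 0.05; 0 in DESeq2; 0.229% of all genes passed, 0.185% higher and 0.0436% lower).

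For TGF-β 7 members differed between the fractions (22.6%, against 27.5% of all genes, 20.2% higher and 7.36% lower in the epithelial response), where the median difference over all genes was 0.213. Ddit3 (1.14 ± 0.23, adjusted p = 0.00051) and Dnajb9 (0.84 ± 0.23, adjusted p = 0.00751) were higher in their epithelial response. Asns, Sdf2l1, Sec61b, Syvn1 and Hyou1 were lower, by -0.65 ± 0.17, -0.84 ± 0.23, -0.77 ± 0.26, -0.72 ± 0.21 and -0.49 ± 0.15. Chac1 and Trib3, which passed in both fractions, did not pass in this test (0.61 ± 0.29 and 0.62 ± 0.27, adjusted p = 0.124 and 0.0907). After subtraction 1 member passed, Edem1 (adjusted p = 0.0483), which is not among the 7. Leaving out mouse 2 gave 4 members and leaving out mouse 3 gave 2.

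The wider ER machinery was covered by 6 further lists of related genes. With EC in epithelial libraries, 2 of 30 other folding and redox genes were higher and 0 lower: Fkbp11, a proline isomerase of the ER (log2 0.76 ± 0.16, adjusted p = 0.00453), and Ero1l, the oxidase that recharges the disulfide isomerases (0.55 ± 0.10, adjusted p = 0.00153). The list's median was 0.19. Of all genes tested with EC in epithelial libraries 1.96% were higher and 2.44% lower, with a median of 0.003. Of 26 other translocation and glycosylation genes 1 passed, the signal peptidase subunit Sec11c (0.39 ± 0.10), and all 26 had a log2 fold change above 0. Other integrated stress response targets gave 4 higher and 0 lower of 34, led by Slc7a11, the cystine transporter (217 to 359 CPM on average, 0.77 ± 0.13), and Stc2 (0.64 ± 0.09, adjusted p = 6.79e-05). Of 30 ER to Golgi transport genes 2 rose, the KDEL receptors Kdelr3 and Kdelr2, which return chaperones to the ER (0.43 ± 0.12 and 0.32 ± 0.08). Of 23 other degradation genes 0 passed in edgeR, with 1 at an unadjusted p under 0.05.

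Creb3l1, an ER-anchored transcription factor cut like ATF6 and known for raising secretory and collagen genes, had the largest change with IPFc among the epithelial genes named from these lists. Its mean was 27 CPM with vehicle, 41.7 CPM with EC (log2 0.60 ± 0.13, adjusted p = 0.0082) and 113 CPM with IPFc (2.02 ± 0.13, adjusted p = 1.97e-09) in epithelial libraries, and it was the only 1 of 21 other UPR regulators that passed with either. With IPFc, Fkbp14 (1.09 ± 0.22, 3.83 to 8.2 CPM), Fkbp11 (0.83 ± 0.15), Kdelr3 (0.84 ± 0.12, 12.5 to 22.5 CPM), Derl3 (1.43 ± 0.40, from 0.856 CPM) and Aldh1l2 (0.83 ± 0.16) also rose. Of 30 folding and redox genes 5 passed, all higher, where 2.57% of all genes were higher and 1.53% lower. Fibroblast vehicle libraries held means of 36.3, 35.5 and 34.3 CPM of Creb3l1, Fkbp14 and Kdelr3. The fibroblast share of epithelial libraries was estimated at 5.95% with vehicle and 11.4% with IPFc, and its part in these rises was not tested.

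With TGF-β in epithelial libraries the related lists moved both ways. Creb3l2 rose by 1.60 ± 0.12 and Gadd45a by 2.48 ± 0.12 (26.1 to 141 CPM). Fkbp7 and Fkbp14 rose by 3.03 ± 0.29 and 2.58 ± 0.23 (1.44 to 11.2 and 3.83 to 21.3 CPM). The amino acid transporter Slc7a5 (-1.47 ± 0.11, 233 to 81 CPM) and Gdf15 (-2.49 ± 0.26) fell. Fibroblast TGF-β libraries held means of 301, 27.6 and 53.2 CPM of Gadd45a, Fkbp7 and Fkbp14. The fibroblast share of the epithelial TGF-β libraries was estimated at 29.0%, and its part in these changes was not tested. Of 34 other integrated stress response targets 14 fell and 6 rose, and of 26 translocation and glycosylation genes 12 fell and 5 rose. Of all genes tested 20.1% fell and 21.0% rose. The cytosolic heat shock list, a response outside the ER, had 13 of 20 genes lower and 0 higher with TGF-β there. With EC 2 were lower and 0 higher, where 2.44% of all genes were lower and 1.96% higher.

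In fibroblast libraries Stc2 and Slc7a11 rose with EC (1.71 ± 0.28 and 1.19 ± 0.18), and Atf5 fell (-0.58 ± 0.13). Of 34 other integrated stress response targets 4 were higher and 2 lower. Of 30 other folding and redox genes 1 was higher, Ero1l (0.60 ± 0.14), and 2 were lower, Uggt2 and Fkbp14 (-0.65 ± 0.15 and -0.62 ± 0.13). Of all genes tested 4.28% were higher and 2.84% lower. Stc2 went from a mean of 8.38 to 25.8 CPM and Slc7a11 from 66.3 to 150 CPM. In epithelial EC libraries the means of this pair were 95.6 and 359 CPM. The epithelial share of the fibroblast libraries was estimated at 46.9% with EC and 21.6% with vehicle. Its part in these changes was not tested, and subtracted values are given for the 31 members only. With TGF-β, Gadd45a, Creb3l1, Ddit4 and Kdelr3 rose (1.65 ± 0.17, 1.39 ± 0.17, 1.22 ± 0.14 and 1.05 ± 0.12). Stc2, Map3k5, Txnip and Ero1l were lower (-1.49 ± 0.30, -1.33 ± 0.19, -0.93 ± 0.13 and -0.44 ± 0.14). Of 30 ER to Golgi genes 6 were higher and 0 lower, and of 34 integrated stress response targets 10 were higher and 5 lower. Over all genes tested 6.39% were higher and 12.8% lower. Gdf15 fell there too (-2.44 ± 0.32, 5.98 to 1.04 CPM), and was at a mean of 18.2 CPM in epithelial vehicle libraries. The epithelial share of the fibroblast TGF-β libraries was estimated at 2.28%, and its part in this fall was not tested. With IPFc 0 genes of the 6 lists passed in fibroblasts in edgeR, where 0.449% of all genes passed. At an unadjusted p under 0.05, 5 genes of the lists were higher and 0 lower. The lists were not run in another tool.

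Set beside the promoter elements, the 8 members with an ERSE all had a log2 fold change above 0 with EC and with IPFc in epithelial libraries. Their medians were 0.24 and 0.22, and 3 and 0 of them were called. Of all 31 members 25 and 27 were above 0 in these comparisons, with medians of 0.26 and 0.19 and 7 and 3 called. Of all genes tested 1.96% and 2.57% were called higher. With TGF-β 4 of the ERSE members were above 0, 2 called higher (Hsp90b1 and Canx) and 2 lower (Creld2 and Syvn1). Of all 31 members 15 were above 0, 10 called higher and 8 lower, and of all genes 21.0% were higher and 20.1% lower. The 4 members with a CARE (Asns, Chac1, Herpud1 and Trib3) had medians of 0.28, 0.44 and 0.46 with EC, IPFc and TGF-β in epithelial libraries. All 4 were above 0 with EC and with IPFc, and 0 and 1 were called. With TGF-β 2 were above 0, with 2 called higher (Chac1 and Trib3) and 1 lower (Herpud1), and a range from -0.30 to 1.39. In fibroblast libraries the median of the 4 CARE members was -0.20 with EC, where 0 of the 4 were above 0. It was 0.50 with TGF-β, where 3 were called higher. Over all 31 members these medians were 0.03 and 0.13, with 17 and 25 above 0 and 3 and 6 called higher. Of all genes tested 4.28% and 6.39% were called higher. After subtraction of the epithelial share 0 of these fibroblast calls were left.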

How the data were processed

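Gene counts of 30 libraries were analysed. The authors sequenced directional libraries on an Illumina NovaSeq, trimmed reads with Trimmomatic 0.30 and deposited raw counts per Ensembl gene; their tests used DESeq2 1.34.0. The labels name GRCm39 and the paper GRCm38, and the aligner, counter and strand setting are not given in the sources used here, so antisense, overlapping or duplicated genes carry that uncertainty. Libraries held 5113828 to 20317181 reads, without molecular identifiers, so limits from reads cover counting error only. Chi-square over degrees of freedom between libraries of a group was 5.76 to 83.2, so none was a repeat deposit.

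From the deposited counts, genes with a mean count of at least 1 were tested with edgeR 4.0.16 in R 4.3.3 (TMM, two-sided quasi-likelihood test, Benjamini-Hochberg over all genes tested, called under an adjusted p of 0.05). Each fraction's 15 libraries were fitted together with the mouse as a block, and the fractions were compared over all 30 libraries, the interaction with the mouse blocked within each fraction. Cultures of a number come from 1 mouse per the labels and methods. As a check, deviations from group means correlated by 0.30 on average within a mouse and -0.10 between mice in epithelial libraries, and by 0.32 and -0.10 in fibroblast libraries. Comparisons with vehicle share its libraries. SE is the log2 fold change over the root of the F statistic. The biological coefficient of variation was 12.7% in epithelial and 16.9% in fibroblast fits. In simulated counts with 200 changed genes, 46 of 67 genes changed 1.5-fold and all 67 changed 2-fold were recovered in epithelial EC against vehicle over 17742 genes, and 14 and 58 of 67 in fibroblast EC over 18012. False calls were 9 and 7. The simulation gave all genes of a fraction the same spread, without a mouse effect or mixing of fractions. It held no change under 1.5-fold, so it gives no recovery for the smaller changes called with EC in epithelial libraries.

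The share of the other fraction was the median over marker genes of a library's CPM divided by that of the partner library from that culture, or the partner group's mean where that library is not analysed here. Subtraction took this share of the partner's profile from the counts, rounded and not below 0. Shares were compared with exact permutation tests over libraries (scipy 1.17.1), which left out the pairing by mouse. Exonic lengths came from GENCODE on GRCm39 and promoter windows from RefSeq on GRCm38.p6, matched by symbol. No coordinates were converted.

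The members and all gene lists were chosen with earlier results of these data known. Library values were planned for members called in at least 2 of the 6 comparisons with vehicle and for sensors and transcription factors. They are not printed for every comparison. Ern1 and Atf6 are given by fold changes or group means, and Hsp90b1 and Edem1 by fold change or direction only in epithelial TGF-β. Other values named were chosen after they were seen. Of each related list, genes were named from the 2 of each direction with the largest change among those called and moving one way in every mouse. Alternatives were DESeq2 1.42.0, its size factors, other filters, robust estimation, no block, only the groups compared, each mouse left out and subtraction. Length offsets and leaving out single EC libraries were chosen after seeing the data.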

Additional observations from a re-analysis of the deposited data

Results flagged for a closer look

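Single libraries far from the other 3 of their group were found for 24 of 185 member and group series (13.0%). A rate of about 1 in 20 holds for independent series, and members counted in the same library are not independent. No rate over all genes was taken, so no excess among the members is read from this share. Of the 24, 7 were in the epithelial EC library of mouse 4 and 7 in the fibroblast EC library of mouse 1, the libraries with an excess of short genes. The epithelial EC library of mouse 4 was high for Hspa5 (2745 CPM), Hsp90b1 (2174 CPM), Pdia3 (1639 CPM), Dnajc3 (234 CPM) and Asns (137 CPM), and low for Syvn1 (60.1 CPM) and Eif2ak3 (36.5 CPM). The fibroblast EC library of mouse 1 was high for Hspa5 (2322 CPM), Calr (2456 CPM), Pdia3 (2069 CPM) and Creld2 (171 CPM), and low for Hyou1 (383 CPM), Syvn1 (53.5 CPM) and Atf6 (36.1 CPM). The part of gene length in these values was not tested gene by gene.

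The other 10 were spread over 8 libraries. In epithelial libraries they were Dnajb9 (80.4 CPM) and Ssr1 (394 CPM) in vehicle of mouse 4, Edem1 in vehicle of mouse 2 (89.3 CPM), Pdia4 in EC of mouse 3 (284 CPM) and Xbp1 in IPFc of mouse 4 (123 CPM). In fibroblast libraries they were Syvn1 in IPFc of mouse 3 (109 CPM) and in TGF-β of mouse 2 (106 CPM), Ddit3 (29.5 CPM) and Ppp1r15a (55.8 CPM) in TGF-β of mouse 1, and Trib3 in EC of mouse 4 (9.00 CPM).

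The share of the other fraction stood apart in epithelial vehicle of mouse 1 (9.61%, the others 4.34% to 5.09%) and in fibroblast EC of mouse 4 (62.9%, the others 39.9% to 42.6%).

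Responses that differed between the fractions by the interaction test were, for EC, those of Ern2 (-2.25), Xbp1 (0.51) and Trib3 (0.90), and for TGF-β those of Hyou1 (-0.49), Dnajb9 (0.84), Sdf2l1 (-0.84), Syvn1 (-0.72), Sec61b (-0.77), Ddit3 (1.14) and Asns (-0.65), as log2 differences of the epithelial minus the fibroblast response.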

How the results depend on the processing

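Of 1316 repeats of the 94 called results of single members under an alternative, 1017 kept direction and call, 294 kept the direction and lost the call, and 5 changed sign, all after subtraction of the other fraction's share. These were, on the log2 scale, Edem1 (-0.19) and Ddit3 (-0.057) in epithelial TGF-β against vehicle, Ddit3 in epithelial IPFc against TGF-β (0.26), Dnajb11 in fibroblast EC against vehicle (-0.29) and Ern2 in fibroblast TGF-β against vehicle (0.43, where no reads were left). Subtraction left 0 members called in epithelial EC, epithelial IPFc, epithelial EC against IPFc, fibroblast EC, fibroblast TGF-β, fibroblast EC against IPFc and fibroblast IPFc against TGF-β, 9 in epithelial TGF-β (18 before) and 1, not among the 7 before, in the TGF-β interaction. Without the mouse as a block, which the labels and methods pair, the counts were 0 for epithelial EC, 1 for epithelial IPFc, 0 for epithelial EC against IPFc, 1 for fibroblast EC, 3 for fibroblast TGF-β, 1 for fibroblast EC against IPFc, 1 for fibroblast IPFc against TGF-β and 0 for the EC interaction, and stayed within 1.5 times elsewhere. With only the groups compared in the fit there were 4 for epithelial EC, 5 for epithelial IPFc, 0 for epithelial EC against IPFc, 0 for fibroblast EC against IPFc and 6 for fibroblast IPFc against TGF-β. DESeq2 called 13 in epithelial EC, 2 in fibroblast IPFc and 5 in the EC interaction. With no filter on low counts 5 passed in epithelial IPFc and 5 in fibroblast EC, and with edgeR's own filter 1 in epithelial IPFc. Length offsets left 0 in epithelial EC against IPFc.

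Leaving out 1 mouse or 1 EC library gave 0 to 6 members in epithelial EC, 0 to 9 in epithelial IPFc, 10 to 21 in epithelial TGF-β, 0 in epithelial EC against IPFc, 0 to 4 in fibroblast EC, 0 to 1 in fibroblast IPFc, 2 to 9 in fibroblast TGF-β, 0 to 6 in fibroblast EC against IPFc, 1 to 5 in fibroblast IPFc against TGF-β, 11 to 19 between the fractions with vehicle, 0 to 5 in the EC interaction and 2 to 9 in the TGF-β interaction. The upper ends of the epithelial counts came without the epithelial EC library of mouse 4, and those of the fibroblast counts without the fibroblast EC library of mouse 1. The median level of the members in epithelial TGF-β libraries was 103 CPM, and 102 to 112 CPM with 1 mouse left out. Length offsets moved the split of all called genes, higher against lower, from 772 and 512 to 1331 and 449 in fibroblast EC, from 1154 and 2303 to 2020 and 2173 in fibroblast TGF-β, from 2179 and 962 to 2112 and 1507 in fibroblast IPFc against TGF-β, and from 3703 and 1351 to 3359 and 2226 in the TGF-β interaction.

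The cause of these changes was not tested. Fits with fewer libraries have fewer degrees of freedom. Subtraction rests on a marker estimate and on partner libraries that are themselves mixed, and rounding at low counts limits Ddit3, Trib3, Chac1 and Ern2. In simulated counts, 46 of 67 genes changed 1.5-fold were recovered in epithelial EC and 14 of 67 in fibroblast EC, and smaller changes were not simulated. Length offsets and leaving out single EC libraries, or the fibroblast vehicle library of mouse 4 for Ern2, were chosen after seeing the data.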
